A study of Mus musculus with 14 samples.

Results

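The genes described here encode 10 enzymes that make or degrade the sphingolipids and galactolipids of myelin: Sptlc1, Sptlc2, Degs1, Cers2, Fa2h, Ugt8a, Gal3st1, Ugcg, Galc and Arsa. They were chosen by gene symbol, the rule that selects them uses no measured value, although they were proposed with earlier results of these data known, and all 10 were found among the 16703 genes of the deposited expression table. RNA was sequenced from whole spinal cord of C57Bl/6 mice with experimental autoimmune encephalomyelitis (EAE), a disease induced by immunization with a myelin peptide in Freund's adjuvant, in which immune cells attack the myelin of the cord. All females were ovariectomized and all males castrated, the Methods give an age of 9 to 10 weeks before the induction of EAE, and every group had EAE, so healthy tissue is not part of any comparison. From the onset of neurological signs, the mice received the androgen dihydrotestosterone (DHT) at 0.04 mg per day for 8 days by the intranasal route, or the vehicle. The table holds 4 female vehicle, 3 female DHT, 4 male vehicle and 3 male DHT libraries, whereas the Methods give 4 animals per group, and the Methods describe a female and a male dataset that were joined by normalization, so that sex and dataset cannot be told apart. The cord was taken as a whole, and in such samples fewer cells of a type and less RNA per cell cannot be told apart.

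Myelin is unusually rich in galactosylceramide and in its sulfated form, sulfatide. Their synthesis starts in the endoplasmic reticulum, where serine palmitoyltransferase joins serine and palmitoyl-CoA, and proceeds through dihydroceramide to ceramide. Oligodendrocytes attach very long, often hydroxylated acyl chains to the ceramide, add galactose to it and sulfate part of the product, and lysosomal enzymes remove the sulfate and the galactose again when myelin lipids turn over. In humans, loss of the galactosidase causes Krabbe disease and loss of the sulfatase causes metachromatic leukodystrophy.

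Values are the authors' log2 CPM, the base-2 logarithm of a gene's reads relative to the size of its library. The totals behind them, recovered as whole numbers, were 29311155 to 35761972 per library, with a median of 31025628, so that counting error is small for all 10 genes and the spread between libraries sets the precision. Male DHT 3 and female vehicle 3 stood apart before any test. Xist, the RNA of the inactive X chromosome, was at a log2 CPM of 7.41 in male DHT 3, against −3.39 to 0.14 in the other male libraries, and at 3.04 in female vehicle 3, against 6.80 to 9.22 in the other female libraries. Across the 14 libraries the deposited values also lack variation along a direction that rests mainly on the same libraries (59.7% of its squared weight on male DHT 3, 26.7% on female vehicle 3), and results are therefore given with and without these libraries where a call depends on them. The 10 markers of mature oligodendrocytes, Mbp among them, were measured in all 14 libraries and none was at 0.

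Transcripts of the enzyme that makes galactosylceramide, Ugt8a, and of the enzyme that hydroxylates its acyl chain, Fa2h, rose with DHT in both sexes. Ugt8a was 2.12-fold higher in DHT females and 2.16-fold higher in DHT males than in the vehicle group of the same sex. The female and male effects were called different for Ugcg, Cers2 and Sptlc2. Ugcg, which makes glucosylceramide, rose in males, 1.43-fold, and the lysosomal enzymes Galc and Arsa fell in males, to 0.75-fold and 0.76-fold. Cers2 rose in males and fell in females, and Sptlc2 fell in females, by small amounts. Gal3st1, Sptlc1 and Degs1 were not called in either sex.

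A gene was called at an adjusted p under 0.05 in limma's moderated test over all 16703 genes. In females, 2 of the 10 genes rose and 2 fell, where 19.8% of all genes rose and 27.3% fell. In males, 4 of the 10 rose and 2 fell, where 12.1% of all genes rose and 10.7% fell. The DHT and vehicle libraries did not overlap for 3 of the 10 genes in females, beside 40.4% of all genes, and for 7 of the 10 in males, beside 38.9% of all genes. The median log2 fold change of the 10 genes was 0.02 in females and 0.17 in males, and over all genes it was −0.02 and −0.0043. The 2 rises in females are thus a share close to that of all genes, and the males' 4 rises are a larger share than that of all genes, with no test of either difference.

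**Figure D1:**
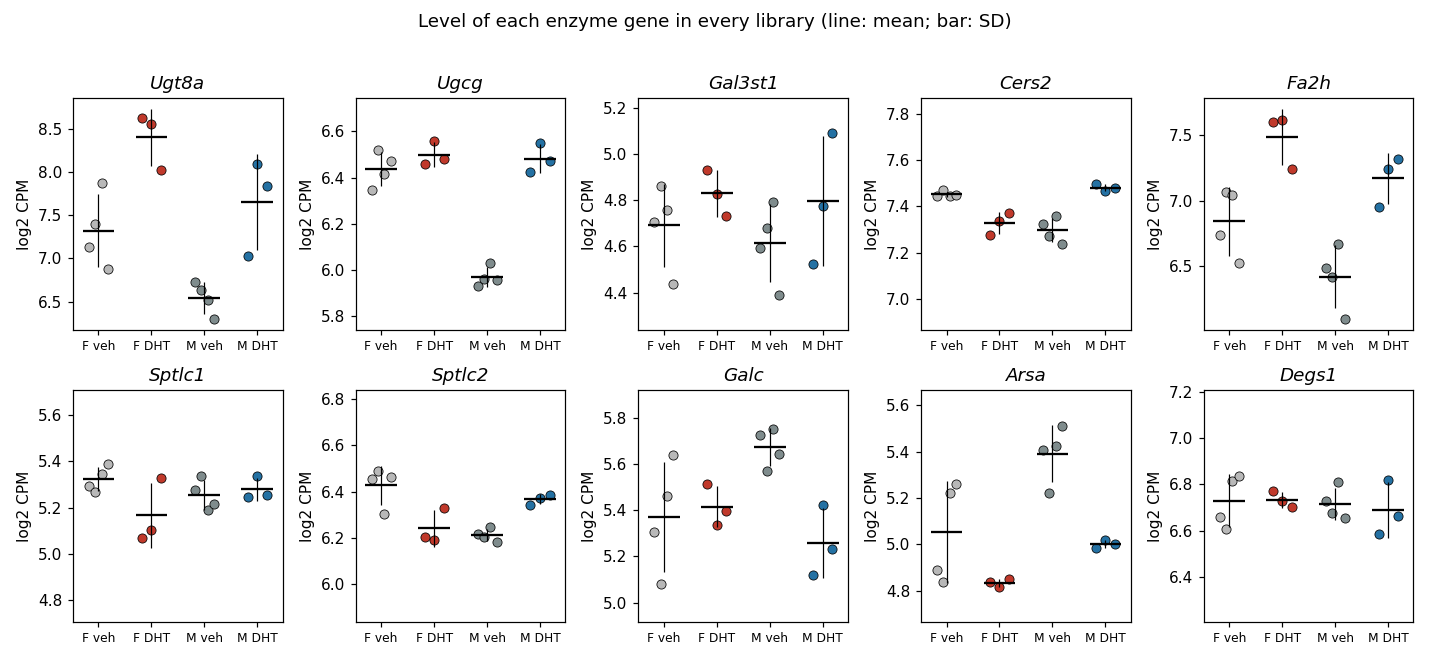
Log2 CPM of each of the 10 enzyme genes in the 14 libraries, 1 point per library, by group (F and M for female and male, veh for vehicle); lines are group means and bars are the SD, and each panel has its own axis, which does not start at 0. The DHT points lie above the vehicle points of the same sex for Ugt8a and Fa2h, and in males alone for Ugcg, Cers2 and Sptlc2.

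The first step of the pathway is carried out by serine palmitoyltransferase, of which Sptlc1 and Sptlc2 encode a pair of subunits. Sptlc1 had log2 CPM values of 5.29, 5.27, 5.35 and 5.39 (female vehicle 1 to 4) and of 5.07, 5.10 and 5.33 (female DHT 1 to 3). The male values were 5.28, 5.34, 5.19 and 5.21 (vehicle 1 to 4) and 5.25, 5.34 and 5.25 (DHT 2 to 4). Female DHT 1 and 2 lay below every other library, and DHT 3 lay within the vehicle range. The log2 fold change was −0.16 (SE 0.07) in females, with an adjusted p of 0.0729 in limma, and 0.03 (SE 0.07) in males, with an adjusted p of 0.818. The female value passed the threshold without female DHT 3, at −0.24 and an adjusted p of 0.00785.

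Sptlc2, the other subunit, had log2 CPM values of 6.46, 6.49, 6.30 and 6.46 (female vehicle 1 to 4) and of 6.20, 6.19 and 6.33 (female DHT 1 to 3). Male vehicle 1 to 4 had 6.22, 6.20, 6.25 and 6.18, and male DHT 2 to 4 had 6.34, 6.37 and 6.39. The male groups did not overlap, while female DHT 3 lay just above female vehicle 3. Sptlc2 fell in females, with a log2 fold change of −0.19 (SE 0.05) and an adjusted p of 0.0151 in limma, and this call was lost without female DHT 1 (−0.17, adjusted p 0.0741) or female DHT 2 (−0.16, adjusted p 0.0733). In males the log2 fold change was 0.16 (SE 0.05) with an adjusted p of 0.0581, which did not pass, and which passed without female vehicle 3 or without female DHT 3, with an adjusted p as low as 0.0360 at the same fold change.

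Degs1, the desaturase that turns dihydroceramide into ceramide, was the steadiest of the 10 genes in its group means. It was at a log2 CPM of 6.61 to 6.84 in the female vehicle libraries, 6.70 to 6.77 in the female DHT libraries, 6.65 to 6.81 in the male vehicle libraries and 6.58 to 6.82 in the male DHT libraries. The groups overlapped in both sexes. The log2 fold changes were 0.0040 (95% interval −0.15 to 0.16) in females and −0.03 (95% interval −0.18 to 0.13) in males.

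Cers2, the ceramide synthase for very long acyl chains, had log2 CPM values of 7.44, 7.47, 7.45 and 7.45 (female vehicle 1 to 4) and of 7.28, 7.34 and 7.37 (female DHT 1 to 3). The values of the males were 7.33, 7.27, 7.36 and 7.24 (vehicle 1 to 4) and 7.50, 7.47 and 7.48 (DHT 2 to 4). The groups did not overlap in either sex, and they were apart in opposite directions. Cers2 fell in females by a log2 fold change of −0.12 (SE 0.04), with an adjusted p of 0.0359 in limma, and rose in males by 0.18 (SE 0.04), with an adjusted p of 0.0146. The female call was lost without female vehicle 1 (adjusted p 0.0608), 2 (0.0668), 3 (0.0513) or 4 (0.0565), and without female DHT 1 (0.177) or 2 (0.0876), at values of −0.10 to −0.13. The male call held without each single library and was lost without female vehicle 3 and male DHT 3 together (0.19, adjusted p 0.0584). Exons of Cers2 share 75 annotated bases with Setdb1, a gene on the other strand, and whether the counting used strand is not given in the sources used here.

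Fa2h, the fatty acid 2-hydroxylase that gives myelin galactolipids their hydroxylated acyl chain, had log2 CPM values of 6.74, 7.06, 7.05 and 6.52 (female vehicle 1 to 4) and of 7.61, 7.62 and 7.24 (female DHT 1 to 3). Male vehicle 1 to 4 had 6.49, 6.42, 6.67 and 6.09, and male DHT 2 to 4 had 6.95, 7.24 and 7.32. Every DHT library was above every vehicle library of its sex. Fa2h rose by a log2 fold change of 0.65 (SE 0.16) in females, with an adjusted p of 0.0080 in limma, and of 0.75 (SE 0.16) in males, with an adjusted p of 0.00981. Both calls held with each single library left out, at 0.54 to 0.77 in females and 0.64 to 0.86 in males. The male call was lost without female vehicle 3 and male DHT 3 together, at 0.72 and an adjusted p of 0.0508.

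Ugt8a encodes the galactosyltransferase that makes galactosylceramide from ceramide, and its change was the largest of the 10 genes in both sexes. It had log2 CPM values of 7.14, 7.40, 7.87 and 6.88 (female vehicle 1 to 4) and of 8.63, 8.56 and 8.02 (female DHT 1 to 3). The values of the males were 6.72, 6.63, 6.52 and 6.30 (vehicle 1 to 4) and 7.03, 8.09 and 7.84 (DHT 2 to 4). The groups did not overlap in either sex, although female vehicle 3 came close to female DHT 3, and male DHT 2 was the lowest of its group by a wide margin. Ugt8a rose by a log2 fold change of 1.08 (SE 0.26) in females, with an adjusted p of 0.00706 in limma, and of 1.11 (SE 0.26) in males, with an adjusted p of 0.0141. The female call held with each library left out, at 0.93 to 1.27. In males the call did not hold without male DHT 3, the library with a high Xist level, at 0.89 and an adjusted p of 0.0708.

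The rises of Ugt8a and Fa2h in both sexes depended on how unwanted variation was treated. With the first principal component of housekeeping genes as a covariate, the female log2 fold change was 0.02 for Ugt8a and −0.0017 for Fa2h, with an adjusted p of 1.0 for both, and the male values were 0.56 and 0.42, with adjusted p of 0.104 and 0.0667. In that fit no gene of the whole table was called in females, and 228 of 16703 had an unadjusted p under 0.05. The component itself separated the groups of both sexes, with scores of −1.35 to −0.02 in the vehicle and 0.52 to 3.0 in the DHT libraries of females, and of −1.30 to −0.97 and −0.34 to 0.52 in those of males, so that it and the treatment cannot be told apart in either sex.

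Promoter windows of RefSeq on GRCm38.p6, which run from 250 bases before to 50 bases after a gene's start, were matched for 9 of the 10 genes. The 250 bases before the start are shown for Ugt8a, which rose in both sexes, and for Sptlc2. The DHT effect on Sptlc2 was called different between the sexes, in a call that most leave-outs removed. Capitals mark an E-box (CANNTG), the motif of basic helix-loop-helix factors such as those of the oligodendrocyte lineage. Both lie on the minus strand, Ugt8a at chr3:125938653-125938902 and Sptlc2 at chr12:87388356-87388605.
Ugt8a: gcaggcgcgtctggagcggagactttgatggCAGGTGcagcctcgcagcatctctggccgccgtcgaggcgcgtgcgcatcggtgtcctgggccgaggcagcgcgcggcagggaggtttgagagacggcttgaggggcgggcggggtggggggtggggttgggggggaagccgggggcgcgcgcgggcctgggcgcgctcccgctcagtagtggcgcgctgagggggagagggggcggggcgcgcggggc
Sptlc2: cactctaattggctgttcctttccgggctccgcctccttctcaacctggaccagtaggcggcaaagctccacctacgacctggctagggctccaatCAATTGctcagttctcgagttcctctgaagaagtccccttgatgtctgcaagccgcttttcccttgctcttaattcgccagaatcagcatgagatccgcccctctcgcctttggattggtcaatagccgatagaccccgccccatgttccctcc
The E-box starts 219 bases before the start of Ugt8a and 154 bases before that of Sptlc2, and G and C make up 76.8% and 55.2% of these bases. On both strands, 7 of the 9 genes held an E-box, a motif that 72.1% of 27025 promoters hold. None of the 9 held the androgen receptor half-site AGAACA, which 19% of promoters hold, or the sterol element TCACNCCAC, which 1.22% hold. The Sox-type motif ACAAAG was found in 1 of the 9, Sptlc1, beside 18.7% of promoters. These motifs do not overlap each other in the bases shown.

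Gal3st1 encodes the sulfotransferase that turns galactosylceramide into sulfatide. It had log2 CPM values of 4.71, 4.86, 4.76 and 4.44 (female vehicle 1 to 4) and of 4.93, 4.82 and 4.73 (female DHT 1 to 3). Male vehicle 1 to 4 had 4.59, 4.68, 4.79 and 4.39, and male DHT 2 to 4 had 4.53, 4.77 and 5.09. The groups overlapped in both sexes, and male DHT 2 was below 3 of the 4 male vehicle libraries. The log2 fold changes were 0.14 (95% interval −0.16 to 0.44) in females and 0.18 (95% interval −0.11 to 0.48) in males, with adjusted p of 0.421 and 0.353 in limma, so that a rise as large as that of Ugt8a lay outside both intervals.

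Ugcg uses the same substrate, ceramide, for the other branch of the pathway: it adds glucose, and its product is the base of gangliosides. It had log2 CPM values of 6.34, 6.52, 6.41 and 6.47 (female vehicle 1 to 4) and of 6.46, 6.56 and 6.48 (female DHT 1 to 3). The values of the males were 5.93, 5.96, 6.03 and 5.96 (vehicle 1 to 4) and 6.42, 6.55 and 6.47 (DHT 2 to 4). The male vehicle libraries lay below all other libraries, and the male DHT libraries lay in the range of the females. Ugcg rose in males by a log2 fold change of 0.51 (SE 0.05), with an adjusted p of 0.0025 in limma, and the value stayed between 0.48 and 0.54 with each library left out. In females it was 0.06 (95% interval −0.06 to 0.18), with an adjusted p of 0.359.

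Of the lysosomal enzymes, Galc removes the galactose of galactosylceramide and Arsa removes the sulfate of sulfatide. Galc had log2 CPM values of 5.31, 5.08, 5.46 and 5.64 (female vehicle 1 to 4) and of 5.51, 5.34 and 5.40 (female DHT 1 to 3), with the DHT values inside the vehicle range. Male vehicle 1 to 4 had 5.73, 5.57, 5.75 and 5.64, and male DHT 2 to 4 had 5.12, 5.42 and 5.23, all below the vehicle libraries. Galc fell in males by a log2 fold change of −0.41 (SE 0.11), with an adjusted p of 0.0243 in limma, and was 0.04 (SE 0.11) in females, with an adjusted p of 0.768. The male call was lost without male vehicle 1 (adjusted p 0.0585), 3 (0.0505) or 4 (0.0557) and without male DHT 2 (0.0818) or 4 (0.0640), at values of −0.34 to −0.42, and it held without male DHT 3.

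Arsa had log2 CPM values of 4.89, 4.84, 5.22 and 5.26 (female vehicle 1 to 4) and of 4.84, 4.82 and 4.85 (female DHT 1 to 3). The values of the males were 5.41, 5.22, 5.42 and 5.51 (vehicle 1 to 4) and 4.98, 5.02 and 5.0 (DHT 2 to 4). The DHT libraries of each sex lay close together, with an SD of 0.02 in both. Arsa fell in males by a log2 fold change of −0.39 (SE 0.10), with an adjusted p of 0.0199 in limma, a call lost without male vehicle 4 (−0.35, adjusted p 0.0604) or male DHT 3 (−0.40, adjusted p 0.0641). In females it was −0.22 (SE 0.10), with an adjusted p of 0.0966, and passed without female vehicle 2, at −0.29 and an adjusted p of 0.0318. In the annotation, exons of Arsa share 690 bases and those of Galc 400 bases with genes on the other strand that are not in the table.

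**Figure D2:**
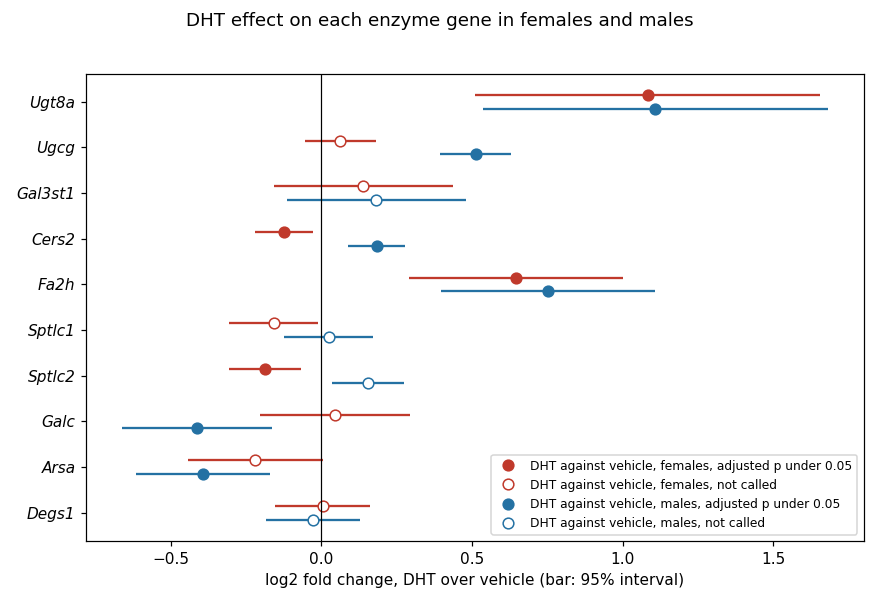
Log2 fold change of DHT over vehicle for each enzyme gene, females and males, with 95% intervals from limma; filled points passed an adjusted p of 0.05 over all genes and open points did not. Ugt8a and Fa2h lie to the right in both sexes, while the values of Ugcg, Cers2 and Sptlc2 lie further to the right in males.

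The difference between the female and the male effect was tested as a contrast of its own, in which 1.86% of all genes were called. It was called for 3 of the 10 enzyme genes. The female effect minus the male effect was −0.45 (SE 0.08) for Ugcg, with an adjusted p of 0.0296 in limma, −0.31 (SE 0.06) for Cers2, with an adjusted p of 0.0389, and −0.34 (SE 0.08) for Sptlc2, with an adjusted p of 0.0459. The direction of each was the same with every library left out, but the calls were not stable. All 3 were lost without female vehicle 3 and male DHT 3 together, at −0.42 for Ugcg (adjusted p 0.0541), −0.32 for Cers2 (0.0582) and −0.38 for Sptlc2 (0.0541). That fit called 0 of all 16703 genes in this contrast. The same held without female vehicle 1 or 2, female DHT 1 or 2, male vehicle 1 or 4, or male DHT 2 or 3. The calls lost in those fits are thus not particular to these genes. Ugcg was called without female vehicle 3 or 4, female DHT 3, male vehicle 3 or male DHT 4, and with any of the other 9 libraries left out its adjusted p was 0.0519 to 0.0938, at −0.42 to −0.48. Cers2 was called only without female vehicle 3, female DHT 3 or male DHT 4, and with the other 11 left out its adjusted p reached 0.130, at −0.28 to −0.33. Sptlc2 was called only without female vehicle 3 or female DHT 3, and with the other 12 left out its adjusted p reached 0.143, at −0.32 to −0.36.

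For the remaining 7 genes, the effects were not shown to differ between the sexes. For Ugt8a the difference was −0.03 (95% interval −0.84 to 0.79) and for Fa2h it was −0.11 (95% interval −0.61 to 0.39), intervals that leave room for a difference in either direction. For Galc, which was called in males and not in females, the difference was 0.46 (SE 0.16), with an adjusted p of 0.110. For Arsa, also called in males alone, it was 0.17 (SE 0.15), with an adjusted p of 0.456.

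Female and male vehicle libraries were then compared, a contrast in which sex cannot be told apart from the dataset and in which 12.7% of all genes were called. Ugcg was higher in female vehicle by 0.47 (SE 0.05) on the log2 scale, with an adjusted p of 0.00244 in limma. Sptlc2 was higher by 0.22 (SE 0.05, adjusted p 0.0191) and Cers2 by 0.15 (SE 0.04, adjusted p 0.0301), and Arsa was lower in female vehicle, at −0.34 (SE 0.10, adjusted p 0.0371). The 3 genes whose DHT effect was called different between the sexes are thus the 3 called higher in female vehicle, and both contrasts share the vehicle libraries, so these are not separate observations. Ugt8a, higher in female vehicle by 0.78 (SE 0.24, adjusted p 0.0551), was not called. Ugt8a passed without female vehicle 4, at 0.92 and an adjusted p of 0.0305, and at an unchanged 0.78 without female DHT 3, male DHT 2 or male DHT 3.

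The call for Ugcg between the vehicle groups held with each library left out, at 0.44 to 0.50. That for Cers2 was lost without female vehicle 1, 2 or 3 or male vehicle 1, 2 or 4, at 0.13 to 0.16 and an adjusted p of up to 0.0960. That for Sptlc2 was lost without female vehicle 1 or 2 or male vehicle 1 or 4, at 0.20 to 0.22 and an adjusted p of up to 0.0621. That for Arsa was lost without female vehicle 1 or 2, female DHT 2 or male vehicle 1, 3 or 4, at −0.27 to −0.34 and an adjusted p of up to 0.113. With female vehicle 4 left out, Fa2h also passed, at 0.53 and an adjusted p of 0.0343, and so did Galc, at −0.39 and an adjusted p of 0.0235.

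To compare levels between genes, linear CPM were divided by the length of all annotated exons of a gene. In female vehicle libraries, Cers2 was highest, at 47.6 ± 0.393 CPM per kb (SD, n = 4), followed by Degs1 at 41.1 ± 3.24, Fa2h at 38.6 ± 6.78 and Ugt8a at 36.4 ± 11.1. The last 3 differed from each other by less than the largest of their SDs. The other genes were lower: Ugcg was at 16.6 ± 0.854, Gal3st1 at 12.7 ± 1.52, Sptlc1 at 11.3 ± 0.414, Sptlc2 at 10.6 ± 0.603 and Arsa at 9.10 ± 1.38 CPM per kb. Galc was lowest, at 2.81 ± 0.455, over 14879 annotated exon bases, the longest of the 10 genes.

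With DHT this order changed at the top. Ugt8a reached 75.9 ± 16.1 CPM per kb in female DHT libraries (SD, n = 3), and Fa2h 60.1 ± 8.52, while Cers2 was at 43.7 ± 1.42. In males Ugt8a went from 20.7 ± 2.55 with vehicle (SD, n = 4) to 46.4 ± 16.0 with DHT (SD, n = 3), where it was within 1 SD of Cers2 at 48.6 ± 0.509 and of Fa2h at 48.2 ± 6.22. Galc stayed lowest in every group, at 2.58 to 3.43 CPM per kb. This place depends on the division by exon length. Without it, Galc in female vehicle was at 41.8 CPM, above Sptlc1 at 40.1, Arsa at 33.5 and Gal3st1 at 26.0.

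**Figure D3:**
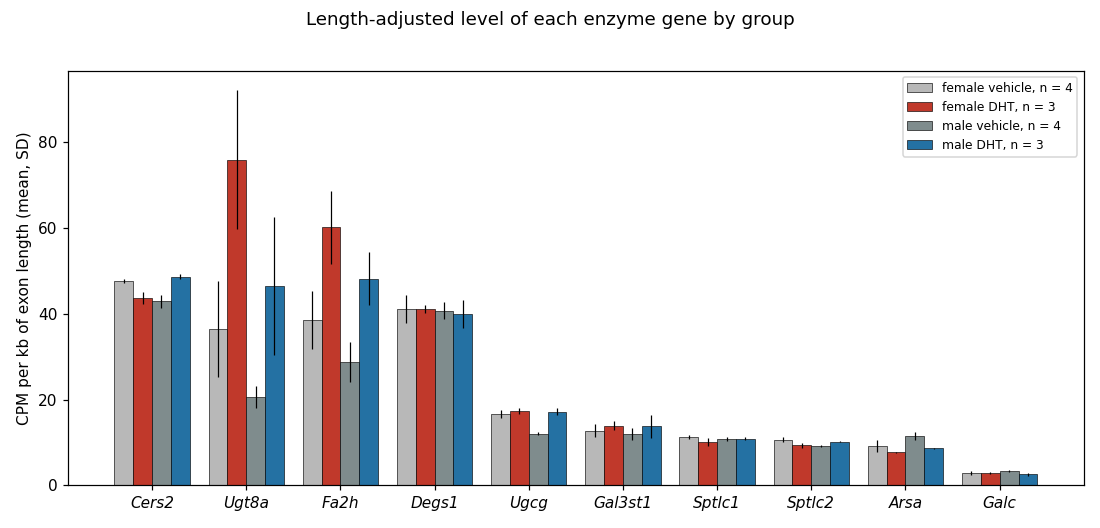
Mean linear CPM per kb of exon length of each enzyme gene in the 4 groups, with SD bars over 4 vehicle or 3 DHT libraries per sex, ordered by the mean over groups. Cers2, Ugt8a, Fa2h and Degs1 stand above the other 6 genes, and the bars of Ugt8a and Fa2h are taller with DHT in both sexes.

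The balance of opposing enzymes was read within each library as a difference of log2 CPM. Ugt8a minus Galc, the galactosyltransferase against the galactosidase, was 1.24 to 2.41 in female vehicle and 2.63 to 3.22 in female DHT libraries, and 0.65 to 1.06 in male vehicle and 1.91 to 2.67 in male DHT libraries. The DHT libraries were above the vehicle libraries in both sexes. Ugt8a minus Ugcg, the galactose branch against the glucose branch, was 0.41 to 1.46 in female vehicle and 1.55 to 2.17 in female DHT libraries, with no overlap. In males this difference was 0.34 to 0.79 with vehicle and 0.60 to 1.54 with DHT, and the groups overlapped. Gal3st1 minus Arsa, the sulfotransferase against the sulfatase, was −0.82 to 0.02 and −0.12 to 0.09 in females, which overlapped, and −1.12 to −0.54 and −0.46 to 0.09 in males, which did not.

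Markers of other cells moved with the treatment. The summed level of the 10 oligodendrocyte markers was 15931 to 19646 CPM in female vehicle and 21355 to 25429 in female DHT libraries, and 17368 to 20151 in male vehicle and 17319 to 23335 in male DHT libraries, with 5 of 10 markers risen in females and 2 of 10 in males. Relative to this sum, on the log2 scale, Ugt8a was at −7.09 to −6.39 in female vehicle and −6.36 to −5.96 in female DHT libraries, and at −7.79 to −7.55 and −7.05 to −6.25 in males, so that it was higher with DHT in both sexes also by this measure. Fa2h was at −7.99 to −7.51 in male vehicle and −7.19 to −7.09 in male DHT libraries, which did not overlap, and at −7.49 to −7.13 and −7.14 to −6.99 in females, which did. Ugcg relative to the sum was lower with DHT in females, at −7.89 to −7.49 and −8.13 to −7.90, and higher with DHT in males, at −8.37 to −8.13 and −8.04 to −7.66. Cers2 was at −6.82 to −6.51 and −7.31 to −7.01 in females, also lower with DHT, and overlapped in males. Gal3st1, Sptlc1, Sptlc2, Arsa and Degs1 were lower in female DHT libraries by this measure too, without overlap, while Galc overlapped. Degs1, steady in its own level, was at −7.59 to −7.12 and −7.90 to −7.68. In males Galc and Arsa were lower with DHT, and Gal3st1, Sptlc1, Sptlc2 and Degs1 overlapped. The sum itself was higher in all female DHT libraries, so a lower relative value need not mean a fall of the gene.

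All 8 markers of microglia and macrophages fell in females and 2 of 8 in males, where 5 of 8 were lower at an unadjusted p under 0.05 in limma. Their sum was 960 to 2078 CPM in female vehicle, 169 to 889 in female DHT, 1984 to 2845 in male vehicle and 760 to 1268 in male DHT libraries, and no marker was at 0. The 6 T cell markers all fell in females, from a sum of 48.4 to 90.5 to a sum of 1.88 to 33.2 CPM, and none was called in males in limma, or had an unadjusted p under 0.05 there, at 61.1 to 102.9 and 28.8 to 64.5 CPM. The 6 neuron markers rose in females and 2 of them in males, with sums of 3742 to 5258 and 5524 to 7294 CPM in females and of 3618 to 4064 and 5009 to 5452 CPM in males. In the difference between the female and the male effect, none of the microglia, T cell or neuron markers was called. The median difference was nevertheless −2.59 for the T cell, −1.15 for the microglia and macrophage, and 0.17 for the neuron markers. At an unadjusted p under 0.05 in limma, 2 of 6 T cell and 1 of 8 microglia and macrophage markers were lower in this contrast. The sum of 6 Schwann cell markers overlapped between the groups, at 471 to 1142 and 802 to 2007 CPM in females and 243 to 802 and 276 to 1119 CPM in males. The part of these shifts in the values of the 10 enzyme genes was not tested.

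Related genes were counted in 7 lists of the neighbouring pathways, and each count is to be set beside the share of all genes, 19.8% risen and 27.3% fallen in females and 12.1% risen and 10.7% fallen in males. Lysosomal enzymes and cofactors of sphingolipid breakdown fell, 10 of 13 in females and 6 of 13 in males, with none risen and median log2 fold changes of −0.76 and −0.47, and at an unadjusted p under 0.05 in limma 11 of 13 were lower and 0 higher in each sex. Gla, the alpha-galactosidase, fell by a log2 fold change of −1.02 (SE 0.18) in females, with −0.47 in males (adjusted p 0.0704). Sumf1, which activates sulfatases such as Arsa, fell by −0.72 in females, with −0.42 in males (adjusted p 0.0594). Neu1, a sialidase, fell in both sexes, by −0.37 and −0.35. Arsa and Galc of the enzymes above, at −0.22 and 0.04 in females, moved less than the median of this list there.

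The list of acyl chain elongation had 6 of 10 measured genes risen and 1 fallen in females and 3 risen in males. Elovl4 rose in both sexes, by 0.60 and 0.63, and Elovl6 by 0.63 and 0.89. Hacd3, a dehydratase of the elongation cycle, rose in females by 0.30, with 0.13 in males (adjusted p 0.179). Elovl1, the elongase of saturated very long chains, fell in females by −0.40, with 0.04 in males (adjusted p 0.739). The median log2 fold changes of this list were 0.27 and 0.21.

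Of 13 other genes of ceramide synthesis and its control, 2 rose and 4 fell in females, shares close to those of all genes, while the males had 1 rise and 3 falls, and the medians were −0.03 and −0.08. Sptssb, a small subunit of serine palmitoyltransferase, rose in both sexes, by 0.85 (SE 0.18) and 0.83 (SE 0.18). Of the Orm proteins, which restrain that enzyme, Ormdl3 fell in males by −0.45, with −0.03 in females (adjusted p 0.775), and Ormdl2 fell in females by −0.66, with −0.21 in males (adjusted p 0.304). Degs2, the desaturase and hydroxylase that forms phytoceramide, fell in males by −0.85, with 0.07 in females (adjusted p 0.718).

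Among 10 genes of ganglioside synthesis and glycolipid transfer, downstream of Ugcg, 5 rose and 4 fell in females, while the males had 3 rises and 2 falls, with medians of 0.26 and 0.09. B4galt6, which makes lactosylceramide from the product of Ugcg, rose by 0.40 and 0.39, and St8sia1, which makes the ganglioside GD3, by 0.75 and 0.49. Plekha8, a transfer protein for glucosylceramide, rose by 0.42 and 0.27. Gltp, the glycolipid transfer protein, fell in females by −0.50, with −0.13 in males (adjusted p 0.393). Of 7 sphingomyelin genes, 1 rose and 1 fell in each sex, with medians of 0.07 and −0.04. Sgms2, a sphingomyelin synthase, fell in females by −0.80, with −0.04 in males (adjusted p 0.881), and Smpd2, a neutral sphingomyelinase, fell in males by −0.70, with −0.25 in females (adjusted p 0.0816). Col4a3bp, the ceramide transfer protein, rose in females by 0.31, with 0.24 in males (adjusted p 0.0626), and Samd8 rose in males by 0.22, with −0.02 in females (adjusted p 0.786).

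The 10 genes that supply activated galactose and sulfate had 1 risen and 4 fallen in females and 1 risen and 1 fallen in males, with medians of −0.19 and −0.20. Papss2, which makes the sulfate donor used by Gal3st1, fell in females by −0.84, with −0.24 in males (adjusted p 0.277). Papss1, the other gene of that step, had the higher mean log2 CPM, 6.31 against 4.97, and was not called in limma. For Papss1 the log2 fold change was 0.17 in females (adjusted p 0.108) and 0.04 in males (adjusted p 0.766). Slc35b2, which carries the donor into the Golgi, fell in both sexes, by −0.38 and −0.59. Impad1, a Golgi phosphatase for the nucleotide left after sulfation, rose by 0.40 and 0.51, and Galk1, the galactokinase, fell in females by −0.57, with −0.46 in males (adjusted p 0.0842). In the sphingosine-1-phosphate list, the females had 3 rises and 6 falls over 13 measured genes and the males 1 rise and 3 falls, with medians of −0.32 and −0.0046. Sgpl1, the lyase that ends sphingolipid breakdown, fell by −1.36 and −0.95, and the receptor gene S1pr2 fell by −1.65 and −0.98. Sgpp1, a sphingosine-1-phosphate phosphatase, rose by 0.16 and 0.48, and Sgpp2 rose in females by 0.89, with 0.35 in males (adjusted p 0.196).

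**Figure D4:**
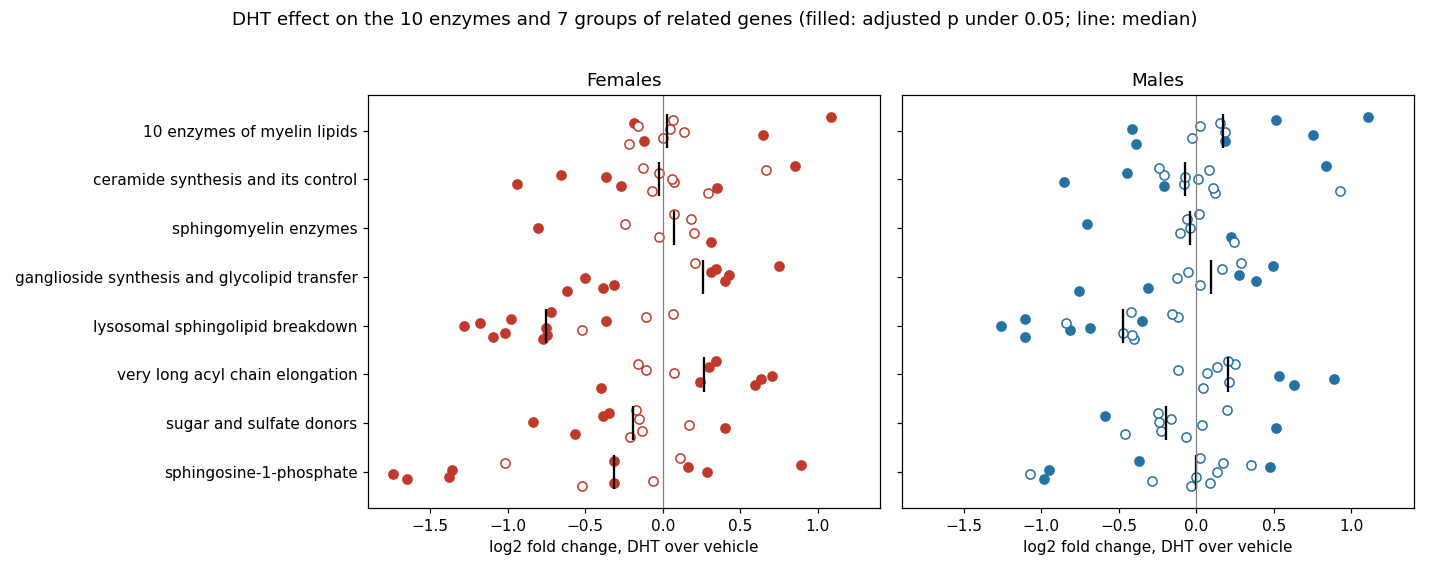
Log2 fold change of DHT over vehicle for the 10 enzyme genes and for each measured gene of the 7 lists, females on the left and males on the right; filled points passed an adjusted p of 0.05 and vertical lines are medians. The list of lysosomal breakdown lies to the left in both sexes, with medians of −0.76 and −0.47, and the elongation list to the right, with medians of 0.27 and 0.21.

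Over the 14 libraries, which share groups and a common normalization, Ugt8a and Fa2h had a Pearson r of 0.95, and of 0.80 after the group means were taken off. Gal3st1 and Fa2h had an r of 0.75, and of 0.86 within groups, and Galc and Arsa an r of 0.78, and of 0.77 within groups. Cers2 and Sptlc2 had an r of 0.84, which was 0.46 within groups. Galc and Degs1 had an r of 0.63, and of 0.91 within groups. Among the 11629 genes whose mean log2 CPM was 3 or more, those most like Ugt8a were Exoc3 (r = 0.99), Usp46 (0.99) and Fbxo45 (0.99), those most like Fa2h were Rap1gds1 (0.99), Peg10 (0.99) and Fgf13 (0.99), those most like Ugcg were Zfp948, Zfp141 and Dnaja2 (each 0.96), and those most like Galc were Fam53b (0.97), Exoc3l4 (0.96) and Abca9 (0.95).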

How the data were processed

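Directional RNA libraries of whole spinal cord were processed by the authors before deposit (per their Methods and processing notes) as follows: FastQC and Picard for quality, fastp for trimming, DRAGEN for mapping to mm10 with GENCODE, RUVSeq on housekeeping genes to join the female with the male data, and a filter on low expression. They deposited log2 CPM values for 16703 genes, which was the unit used here. Taken off the log scale, the values came out whole in 100% of cases within 0.05 of a whole number, after the authors' normalization, so they are not raw counts, and totals of 29311155 to 35761972 describe the depth. Columns with the authors' own fold changes and p-values were not used, and 0 other columns of per-sample values were left out.

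Group means of the 4 groups were fitted with limma's linear model and moderated test with a mean-variance trend (version 3.58.1, under R 4.3.3) on the deposited values, with no filter or pseudocount. Benjamini-Hochberg adjustment covered all genes, and a call needed an adjusted p under 0.05. Limma was used, and not the count model that the Methods name, because the values are on a log2 scale. Column names give each library's group but not its sample, so libraries are named by their column number, and every label gives the same replicate number, so nothing pairs the libraries. The labels do not say that libraries came from separate animals, so p-values measure the spread between libraries. Alternatives were quantile normalization, centring on housekeeping genes, their first component or the missing direction as a covariate, a minimum mean log2 CPM of 1, pseudocounts of 0.5 and 1 on linear CPM, no trend, voom, array weights, other thresholds, the column number as a block, each sex alone and each library left out. The model was tested on simulated data.

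Named genes are all 10 enzymes, up to 4 genes per list with the smallest limma p, Papss1 beside Papss2, and the 3 genes most correlated with Ugt8a, Ugcg, Fa2h and Galc. A gene that the rule selects is not reported here. The enzymes, the lists and the rule were chosen with earlier results of these data known. Coordinates and exon lengths come from GENCODE M21 on GRCm38, the build of mm10, and promoters from RefSeq. Python 3.11.15 was used with scipy 1.17.1, pandas 2.3.3 and numpy 2.4.6 for tables and matplotlib 3.10.9 for plots.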

Additional observations from a re-analysis of the deposited data

Results flagged for a closer look

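The difference between the female and the male effect of DHT was called for 3 of the 10 enzyme genes in limma, with calls that most leave-outs removed. For Ugcg the female minus the male effect was −0.45 on the log2 scale (adjusted p 0.0296), with 0.06 in females and 0.51 in males. For Cers2 it was −0.31 (adjusted p 0.0389), with −0.12 in females and 0.18 in males. For Sptlc2 it was −0.34 (adjusted p 0.0459), with −0.19 in females and 0.16 in males. With each of the 14 libraries left out in turn, the call was lost 9 times for Ugcg, 11 times for Cers2 and 12 times for Sptlc2, and without female vehicle 3 and male DHT 3 together all 3 were lost, at adjusted p of 0.0541, 0.0582 and 0.0541. Several of these fits, the last among them, called 0 of all 16703 genes in this contrast. All 3 genes were also higher in female than in male vehicle libraries, which enter both contrasts. None of 20 groups of 4 vehicle libraries, 1 for each enzyme gene and sex, had a library far from the others by Dixon's test. The DHT groups, which hold male DHT 3, were not tested in this way, and 4 libraries give this test little power.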

How the results depend on the processing

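Of the 10 enzyme genes, 4 were called in females, 6 in males, 3 in the difference of the effects and 4 between the vehicle groups. With the first housekeeping component as a covariate these counts were 0, 3, 1 and 5, and the female value of Fa2h reversed to −0.0017. With the column number as a replicate block they were 0, 1 and 0, the vehicle contrast could not be fitted with it, and Ugcg in males, at 0.50, was the call that held. In females this fit called 0 genes of the whole table, where 6557 had an unadjusted p under 0.05, and the labels do not pair the libraries. Centring on housekeeping genes left 2 female calls and 2 between the vehicle groups, each sex alone left 2 in females, and an adjusted p under 0.01 left 2, 2, 0 and 1. The missing direction as a covariate left 0 in the difference and 2 between the vehicle groups, no trend left 1 in the difference, and array weights or an adjusted p under 0.1 gave 7 between the vehicle groups. Without female vehicle 3 and male DHT 3 together, 2 male calls and 0 in the difference were left. With each library left out in turn, the counts were 2 to 5 in females, 4 to 7 in males, 0 to 4 in the difference and 1 to 7 between the vehicle groups. The cause of these changes was not tested. Quantile normalization moved the median log2 fold change of all genes in females from −0.02 to 0.13, and housekeeping centring moved that of males to 0.13. With 3 or 4 libraries per group, small changes such as those of Cers2 and Sptlc2 are at the limit of what the spread allows.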
